A study of Zea mays with 24 samples.

Results

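The transcripts described are those of 4 maize asparagine synthetase genes, GRMZM2G074589, GRMZM2G093175, GRMZM2G053669 and GRMZM2G078472, out of 39634 genes in each of the 4 deposited tables. The set was proposed as asn1 to asn4 and was chosen by the size of the increase of asn3 (GRMZM2G053669) between the groups compared. The levels and changes of all 4 genes between these groups are therefore a description, with no test of their own. Names follow the RefSeq table for Zm-B73-REFERENCE-NAM-5.0, which lists GRMZM2G074589 as asn1, GRMZM2G093175 as asn2 and GRMZM2G053669 as asn3. That table holds no name for GRMZM2G078472, which was proposed as asn2 while GRMZM2G093175 was proposed as asn4. It is therefore called by its identifier, and that it encodes an asparagine synthetase rests on the proposed set alone.

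Asparagine synthetase makes asparagine by moving the amide nitrogen of glutamine onto aspartate, at the cost of ATP. Asparagine holds much nitrogen for its carbon, and plants use it to store nitrogen and to move it between organs. In Arabidopsis, ASN1 is known as a gene that is induced in the dark and repressed by sugar, while other copies of the family are not induced in this way.

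Seedlings of the maize inbred W22, wild type or carrying dct2-1, were sampled at 9 days. The dct2-1 allele is a mutation of pDCT2, whose product carries dicarboxylates such as malate across the plastid envelope in C4 leaves. Leaf 2 was cut into segments named by their place relative to a ligule: the blade base (-4), the zone where the leaf turns from sugar import to export (-1), lit mid-leaf (+4) and the tip (+10). Each genotype and segment has 3 RNA-seq libraries, 24 in all and 8 groups, and each library pooled 15 plants. Whole leaf tissue was used, so more cells of a type and more transcript per cell cannot be told apart.

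Each segment has its own Cuffdiff table, in which a gene has 1 FPKM value (reads per transcript length and per library) per group. The table of a segment holds 2 groups and names them q1 and q2. Which genotype is q1 is not stated in the sources used here, so differences are given as q2 relative to q1, and statements across segments assume that the names are used alike in all tables. The transcript of pDCT2 was lower in q2 in all 4 tables, by 4.83-fold at -4, 52.7-fold at -1, 71.1-fold at +4 and 32.7-fold at +10. In every table q2 was thus the group with less transcript of the gene mutated in dct2-1, and in this respect the names ran alike. All levels, statistics and adjusted p-values below come from the authors' deposited tables, and no value for a single library was used. No SD can be given for a level, and the ± after a log2 change is the size of the change over the deposited statistic. A gene is called where the deposited adjusted p is under 0.05. The deposited p does not follow from that statistic alone, so the ± does not tell whether a gene is called. In the authors' deposited tables from Cuffdiff, asn2 has a statistic of 2.89 with p = 0.135 at +4 and a statistic of 2.87 with p = 5e-05 at +10. Depth per library is unknown. As a check of the tissue, picked after its values were seen, pep1, the carbon-fixing carboxylase of C4 leaves, stood at 26.6 FPKM at -4 and 10125 FPKM at +10 in q1.

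Of the 4 genes, asn3 was called higher in q2 in every segment. GRMZM2G078472 was called higher at -1 and +4, and its q2 level was also above its q1 level at -4, where it was not tested, and at +10, where it was not called. The levels of asn1 lay within 1.47-fold of each other between the groups in all 4 segments. Those of asn2 were called lower in q2 at -4 and -1 and higher at +10. The authors' deposited tables tested 3 of the 4 genes at -4 and all 4 in the other segments. They called 1 gene higher and 1 lower at -4, 2 higher and 1 lower at -1, 2 higher and 1 lower at +4, and 2 higher and 0 lower at +10. Of all genes tested, 15.2% were called higher and 12.7% lower at -4, 9.48% and 8.22% at -1, 19.5% and 22.8% at +4, and 21.5% and 22.3% at +10. Since the set was taken for this contrast, nothing is read from these counts.

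**Figure D1:**
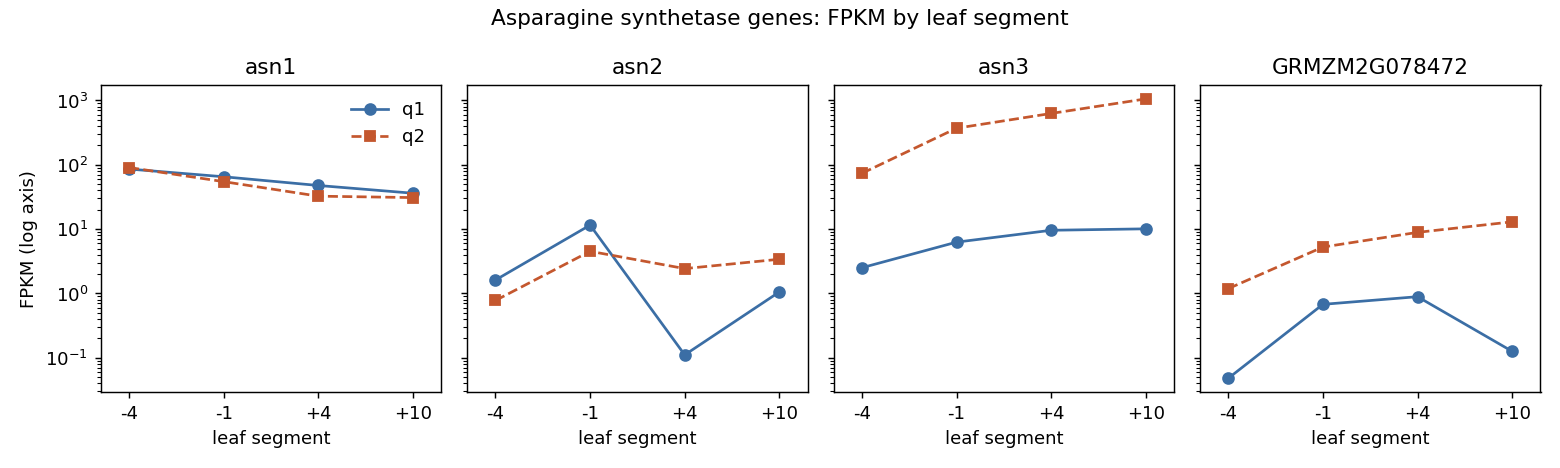
FPKM (log axis) of each gene in leaf segments -4, -1, +4 and +10, with 1 point per group as pooled by the authors (circles and solid line, q1; squares and dashed line, q2). The lines of asn1 lie close together, asn3 and GRMZM2G078472 are higher in q2 in every segment, and the lines of asn2 cross between -1 and +4.

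The gene asn3 (chromosome 1, 45114257 to 45118291 in the deposited coordinates, of a genome build the sources do not name) had the highest level of the 4 in q2 at -1, +4 and +10. It stood at 2.51 FPKM in q1 and 73.7 FPKM in q2 at -4, at 6.28 and 370.3 FPKM at -1, at 9.61 and 628 FPKM at +4, and at 10.1 and 1058 FPKM at +10. In q2 every segment was above the highest q1 value of 10.1 FPKM. Among the levels of all tested genes, asn3 stood at percentile 13.7 in q1 and 90.9 in q2 at -4, and at percentile 51.0 in q1 and 99.5 in q2 at +10.

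Between the groups, asn3 was 29.3-fold higher in q2 at -4 (log2 change 4.87 ± 0.34), 59.0-fold at -1 (5.88 ± 0.38), 65.4-fold at +4 (6.03 ± 0.33) and 104.5-fold at +10 (6.71 ± 0.32). Whether these changes differ between segments was not tested. Among genes that were called, carry a symbol and reach 5 FPKM in either group, asn3 had the largest increase in all 4 segments. The set was chosen by this increase, so the rank restates that choice. Next among genes with a symbol were dhn1, a dehydrin gene, with a log2 change of 4.55 at -4, EREB94, an AP2/EREB transcription factor gene, with 3.79 at -1, MPI, a proteinase inhibitor gene, with 4.55 at +4, and LIP, with 5.68 at +10. With genes that carry no symbol included, asn3 was the 7th of 2521 at -4, the 2nd of 1417 at -1, the 3rd of 2813 at +4 and the 3rd of 3015 at +10. GRMZM2G331701 led at -4 with a log2 change of 5.65, and GRMZM2G479260 led at +4 with 7.22. The nearest genes below asn3 in this wider order were GRMZM2G134888 at -1, with 5.77, and GRMZM2G002630 at +4, with 5.87. Without the limits on calls and level, asn3 ranked 20th at -4, 4th at -1, 8th at +4 and 4th at +10. That order covers tested genes detected in both groups.

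Along the leaf, the level of asn3 was lowest at the base and highest at the tip in both groups. From -4 to +10 it was 4.02 times as high in q1 and 14.3 times as high in q2. Most of the gap in q1 lay between -4 and +4, since +4 and +10 differed by 1.05 times, while in q2 the ratio of +10 to +4 was 1.68. The tables were normalized separately, so levels of different segments are set side by side with no test, and with no spread between libraries it cannot be said which neighbours in these orders differ.

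The gene asn1 (chromosome 9, 106787617 to 106796954) was the most abundant of the 4 in q1. Its levels were 85.9 FPKM in q1 and 90.8 FPKM in q2 at -4, 65.2 and 54.7 FPKM at -1, 47.7 and 32.6 FPKM at +4, and 36.2 and 30.9 FPKM at +10. It ran opposite to asn3 along the leaf, highest at the base and lowest at the tip, by 2.37 times in q1 and 2.93 times in q2. Its log2 changes were 0.08 ± 0.24, -0.25 ± 0.33, -0.55 ± 0.29 and -0.23 ± 0.26 from -4 to +10, and the authors' deposited tables called it only at +4. Rescaled to equal total FPKM in both groups, asn1 stood at -0.10 at +4, and its sign turned to 0.12 at +10.

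The gene GRMZM2G078472 (chromosome 9, 137784209 to 137791159) was scarce in q1, at 0.0481, 0.678, 0.892 and 0.126 FPKM from -4 to +10. In q2 it stood at 1.19, 5.27, 8.91 and 13.0 FPKM, above every q1 value, and its q2 levels had the same order of segments as those of asn3. How reads shared between genes were handled is not known, and whether reads shared with asn3 add to the levels of GRMZM2G078472 was not tested. It was called higher in q2 by the authors' deposited tables at -1 (7.77-fold, log2 change 2.96 ± 0.64) and +4 (9.99-fold, 3.32 ± 0.57). At +10 the log2 change of 6.68 was near that of asn3 but its ± was 2.85 and it was not called, and at -4 it was not tested. These q1 levels are low, and with 1 FPKM added to both groups the log2 changes were 1.06 at -4, 1.90 at -1, 2.39 at +4 and 3.64 at +10. Another gene, GRMZM2G078469, has the same start and end in the tables and was listed at 0 to 0.0762 FPKM in q1 and at 0 in q2.

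The gene asn2 (chromosome 3, 229419466 to 229423836) had its highest level at -1 in both groups. It stood at 1.62 FPKM in q1 and 0.779 FPKM in q2 at -4, at 11.6 and 4.53 FPKM at -1, at 0.111 and 2.44 FPKM at +4, and at 1.06 and 3.41 FPKM at +10. The log2 changes were -1.06 ± 0.62 at -4, -1.35 ± 0.43 at -1, 4.46 ± 1.54 at +4 and 1.69 ± 0.59 at +10. The authors' deposited tables called asn2 lower at -4 and -1 and higher at +10, and did not call it at +4. The directions held under both other scalings in each segment, and the difference between the basal and distal segments was not tested. The log2 change at +4 rests on a q1 level of 0.111 FPKM and was 1.63 with 1 FPKM added to both groups.

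**Figure D2:**
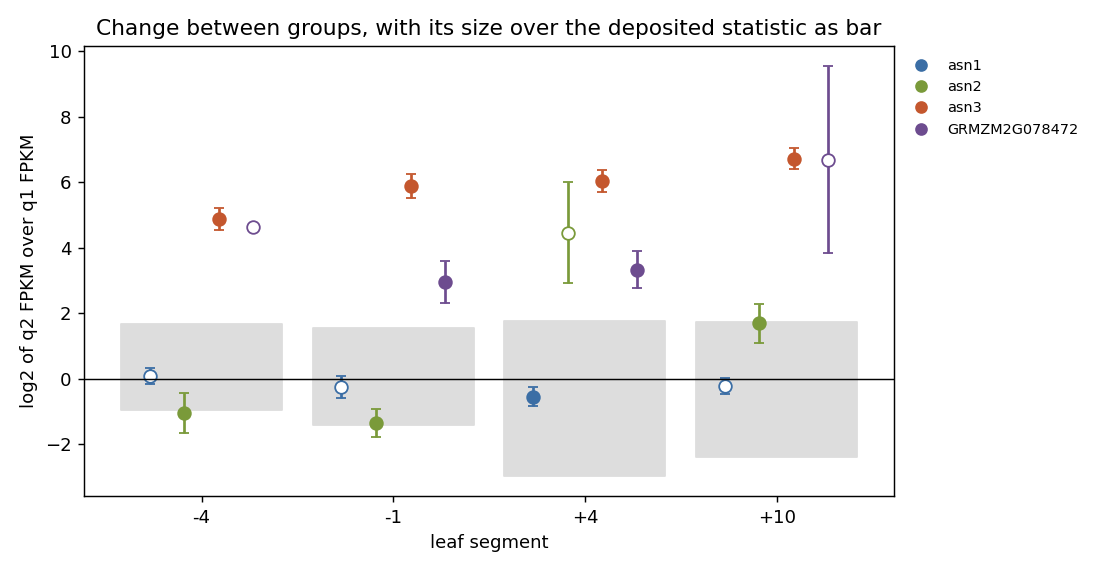
Log2 of q2 over q1 FPKM for each gene and segment; bars are the size of the change over the deposited statistic, filled points were called by the authors and open points were not. Grey bands hold the central 95% of all tested genes (-0.95 to 1.66 at -4 and -2.39 to 1.72 at +10), GRMZM2G078472 at -4 was not tested and has no bar, and asn3 lies above the band in all 4 segments.

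Because FPKM is scaled to transcript length, the levels of the 4 genes are set beside each other. How reads shared between them were counted is not known, and the shares below carry that limit. In q1, asn1 made up 95.4% of their summed FPKM at -4, 77.9% at -1, 81.8% at +4 and 76.2% at +10. In q2 the share of asn1 was 54.5% at -4 and 2.80% at +10, while that of asn3 was 44.3%, 85.2%, 93.5% and 95.7% from -4 to +10. At -1 in q1 asn2 held 13.8%, its largest share, and GRMZM2G078472 held at most 1.53% in any group.

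From base to tip, the summed level of the 4 genes was lower in each further segment of q1 and higher in each further segment of q2. It was 90.1 FPKM in q1 and 166 FPKM in q2 at -4, 83.7 and 435 FPKM at -1, 58.3 and 672 FPKM at +4, and 47.5 and 1105 FPKM at +10. The sum was thus 1.85, 5.19, 11.5 and 23.3 times as high in q2. Without asn3, the sums of the other 3 genes were 1.06, 0.833, 0.901 and 1.27 times as high in q2 as in q1, and with equal totals, where the direction at +4 turned, 1.09, 0.893, 1.23 and 1.61 times.

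**Figure D3:**
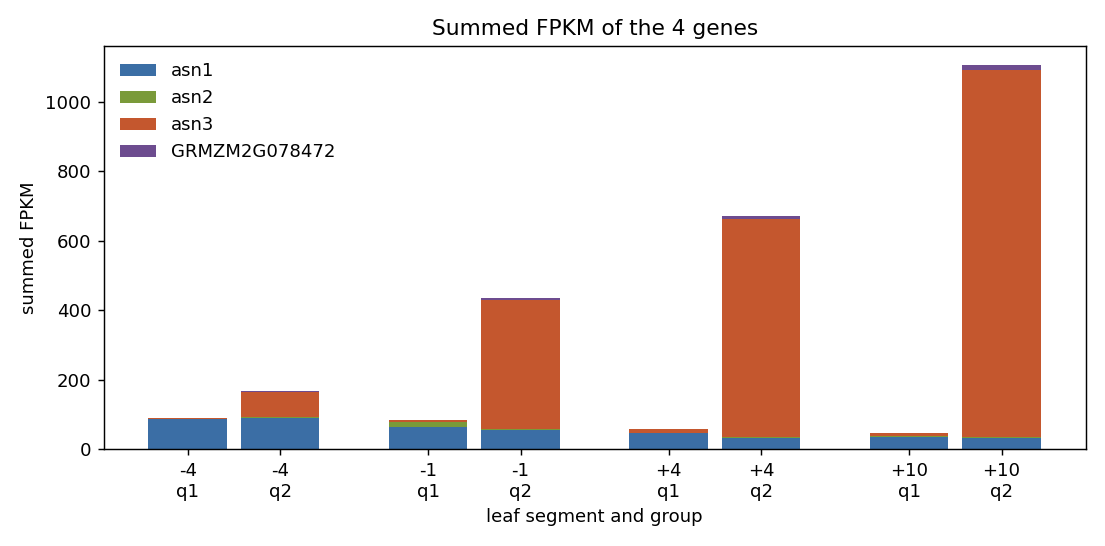
Summed FPKM of the 4 genes in each segment and group, stacked by gene. In q1 most of each bar is asn1, and in q2 asn3 takes 44.3% of the bar at -4 and 95.7% at +10.

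Over the 8 groups, the log2(FPKM + 1) values of asn3 and GRMZM2G078472 had a Pearson r of 0.96, while asn3 had an r of -0.53 with asn1 and 0.19 with asn2. These correlations are descriptive (n = 8 pooled groups, taken from 4 tables normalized separately). They include the difference between q1 and q2 for which asn3 was chosen. Among 12720 genes tested in all segments with a mean of at least 5 FPKM, 1399 had a symbol, and those with the pattern most like asn3 were MTD1 (r = 0.97), lip15, a bZIP transcription factor gene (0.95), GATA5, a GATA-family factor gene (0.92), ERTC (0.90) and bZip112, another bZIP gene (0.89). With genes that carry no symbol included, these genes held places 4, 10, 26, 48 and 52 of 12719. MTD1 stood between 10.4 and 16.2 FPKM in q1 and between 33.1 and 56.3 FPKM in q2. Unlike asn3, lip15 had its highest level at -1 in both groups. The bZip112 levels were 2.70, 4.42, 14.6 and 19.4 FPKM in q1 and 9.42, 44.4, 62.1 and 65.8 FPKM in q2, from -4 to +10, and in both groups they were lowest at -4 and highest at +10, as for asn3.

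Among genes with a symbol, those most like asn1 and asn2 were other genes than those named for asn3, while those most like GRMZM2G078472 overlapped with them. For asn1 they included ACP, acp, the leaf polarity gene rld2 and the alpha tubulin gene TUA2, with r from 0.987 to 0.994 and levels that were higher at -4 than at +10 in both groups. TUA2, for example, went from 2531 FPKM at -4 to 100.5 FPKM at +10 in q1. For GRMZM2G078472 they were GATA5 (0.96), orp1, a tryptophan synthase gene (0.93), lip15 (0.92), MTD1 (0.90) and MPI (0.90), of which GATA5, lip15 and MTD1 were also among the 5 named for asn3. For asn2 they were ysl12, Mlo9, PP2C28, PSA3 and hk3, with r from 0.84 to 0.94. With genes that carry no symbol included, ACP held place 5 for asn1, ysl12 place 4 for asn2 and GATA5 place 10 for GRMZM2G078472.

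The steps around asparagine synthetase were then compared, from lists filled by gene symbol, which matched 79 identifiers. The counts are of identifiers tested and called by the authors' deposited tables, and the shares of all tested genes given above are their background. Of these identifiers, 14 of 57 tested were higher and 9 lower in q2 at -4, 10 and 9 of 55 at -1, 12 and 16 of 57 at +4, and 19 and 11 of 54 at +10. Called higher in all 4 segments were lkrsdh1, lip15, bZip112 and bZIP76 (GRMZM2G134863), and called lower in all 4 were NAR, Gln1-4, see1 and see2b. Another identifier listed as bzip76, GRMZM2G055413, was not called in any segment (0.06, -0.06, 0.04 and -0.24 from -4 to +10). Of all 14633 genes tested in all 4 tables, 2.19% were called higher and 1.21% lower throughout.

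Nitrate reductase brings nitrogen into the pathway, and the nitrite reductase that follows makes ammonium. The nitrate reductase gene NAR was lower in q2 in every segment. It stood at 13.1 FPKM in q1 and 1.60 FPKM in q2 at -4 (log2 change -3.04 ± 0.36), and at 4.62 and 0.238 FPKM at -1 (-4.28 ± 0.76), with log2 changes of -1.68 ± 0.46 at +4 and -1.49 ± 0.34 at +10. The other nitrate reductase gene, NNR1, was lower at -4 (-1.33 ± 0.27) and -1 (-1.24 ± 0.34) and higher at +4 (0.44 ± 0.29), and was not called at +10 (0.28 ± 0.28). The nitrite reductase gene NIR was higher at -4 (0.55 ± 0.37) and lower at -1 (-0.79 ± 0.36), with values of 0.13 ± 0.31 at +4 and -0.06 ± 0.28 at +10 that were not called.

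Glutamine synthetase supplies the glutamine that asparagine synthetase uses. Of 7 identifiers, 3 were higher and 1 lower at -4, 1 higher and 2 lower of 6 tested at -1, 0 higher and 3 lower at +4, and 3 higher and 2 lower at +10. Over all tested genes, from -4 to +10, 15.2%, 9.48%, 19.5% and 21.5% were called higher. The shares called lower were 12.7%, 8.22%, 22.8% and 22.3%. The list medians of 0.26, -0.13, 0.28 and 0.14 from -4 to +10 stood beside 0.02, 0.01, 0.01 and 0.02 for all tested genes. Gln1-4 was lower throughout, at 269 FPKM in q1 and 143 FPKM in q2 at -4 (-0.91 ± 0.26) and at 145 and 49.4 FPKM at +10 (-1.55 ± 0.26). The gene gln2 stood at 7.41 FPKM in q1 and 44.1 FPKM in q2 at -1 (2.58 ± 0.74). GRMZM2G098290, which RefSeq lists as gln1 and gs2, stood at 429 and 150.2 FPKM at +4 (-1.51 ± 0.30). The called increases at -4 were those of GLN6 (1.35 ± 0.68), gln2 (1.31 ± 0.70) and GRMZM2G098290 (0.59 ± 0.25). At +10 gln3 (1.58 ± 0.50), gln2 (0.80 ± 0.38) and GLN6 (0.56 ± 0.26) were called higher, and GRMZM2G098290 was called lower (-0.65 ± 0.26). Ferredoxin-dependent glutamate synthase, fgs1, was higher at -4 (0.65 ± 0.25) and was not called elsewhere (0.34 to 0.44). Glutamate dehydrogenase, gdh1, was lower at -1, +4 and +10, there at 61.6 FPKM in q1 and 14.0 FPKM in q2 (-2.14 ± 0.31), and stood at -0.26 ± 0.29 at -4.

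Aspartate, the other substrate, is also the start of the lysine, threonine and methionine pathway. The lysine-degrading enzyme gene lkrsdh1 was higher in q2 throughout, with log2 changes of 1.37 ± 0.38, 1.63 ± 0.44, 1.78 ± 0.42 and 2.74 ± 0.38 from -4 to +10. Its levels were 13.3, 14.4, 7.57 and 7.44 FPKM in q1 and 34.4, 44.4, 25.9 and 49.7 FPKM in q2. At -4 the synthesis genes cgs1 (-0.56 ± 0.26), akh2 (-0.78 ± 0.32) and AKHSDH1 (GRMZM2G389303, -0.50 ± 0.30) were lower. At +10 the AKHSDH1 identifiers GRMZM2G365423 (0.86 ± 0.41) and GRMZM2G437977 (0.69 ± 0.35) were higher. These were not called at -4 (-0.33 ± 0.25 and -0.25 ± 0.24), and GRMZM2G389303 was not called at +10 (0.94 ± 0.72). Alanine aminotransferase, alt (GRMZM2G088064), was higher at -1, +4 and +10, there at 6.69 FPKM in q1 and 43.5 FPKM in q2 (2.70 ± 0.49). The remaining alt identifiers, GRMZM2G088018 and GRMZM2G088028, were not tested. No asparaginase gene was matched by symbol. The aminotransferase list held only alt identifiers, so no aspartate aminotransferase gene was compared.

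**Figure D4:**
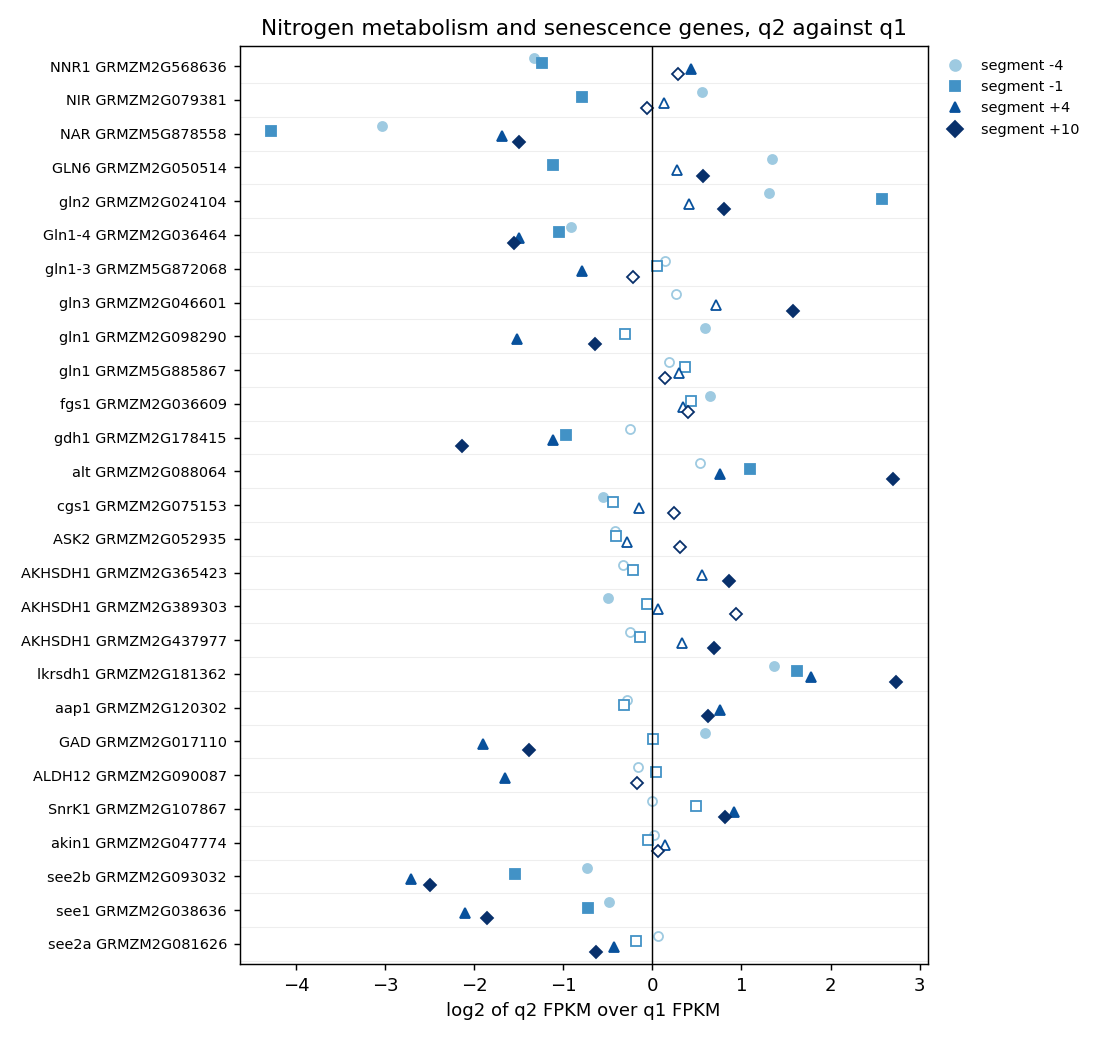
Log2 of q2 over q1 FPKM for the listed genes (bZIP factors left out), with 1 marker shape and shade per segment; filled markers were called by the authors and open ones were not, and only identifiers tested in at least 3 segments are drawn. NAR, Gln1-4, see1 and see2b lie left of 0 and lkrsdh1 right of 0 in all segments.

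Among the 8 transport identifiers 1 or 2 were tested per segment. The gene aap1, named as an amino acid permease, was called higher at +4 (0.76 ± 0.33) and +10 (0.63 ± 0.29), and the nitrate transporter gene NRT1.2 lower at +4 (-2.34 ± 0.81). The glutamate decarboxylase gene GAD, which makes GABA, was higher at -4 (0.59 ± 0.27) and lower at +4 (-1.90 ± 0.30) and +10 (-1.38 ± 0.27). ALDH12 (GRMZM2G090087), of proline breakdown, was lower at +4 (-1.66 ± 0.49) and not called elsewhere, and the ALDH12 identifier GRMZM2G090245 was not tested.

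The kinase SnRK1 and factors of the bZIP family act in the sugar and energy response that controls asparagine synthetase genes in Arabidopsis. The kinase gene SnrK1 was called higher at +4 (0.91 ± 0.35) and +10 (0.81 ± 0.30), akin1 stood between -0.04 and 0.14 and was not called, and the trehalose phosphate phosphatase genes ra3 and SRA were not tested. Of 29 bZIP identifiers tested at -4, 7 were higher and 1 lower, with 7 and 1 of 28 at -1, 7 and 5 of 29 at +4, and 10 and 3 of 27 at +10. Over all tested genes, from -4 to +10, 15.2%, 9.48%, 19.5% and 21.5% were called higher. The shares called lower were 12.7%, 8.22%, 22.8% and 22.3%. The median log2 changes of the bZIP identifiers were 0.16, 0.02, 0.08 and -0.03 from -4 to +10, beside 0.02, 0.01, 0.01 and 0.02 for all tested genes. The largest called changes at -4 were those of bZIP107 (2.69 ± 0.95) and bZip112 (1.80 ± 0.44), and at -1 that of bZip112 (3.33 ± 0.47). At +4 they were those of bZIP111 (-3.66 ± 1.51) and bZip112 (2.09 ± 0.34), and at +10 that of bZIP45 (2.06 ± 0.81). Some of these rest on low levels. In q1 bZIP107 stood at 0.419 FPKM at -4 and bZIP45 at 1.01 FPKM at +10, and in q2 bZIP111 stood at 0.356 FPKM at +4.

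Of the 3 genes named as senescence enhanced, 2 were called lower in q2 at -4 and -1 and all 3 at +4 and +10. Over all tested genes, 12.7%, 8.22%, 22.8% and 22.3% were called lower from -4 to +10. The protease genes see2b and see1 were lower in all segments, with log2 changes at the tip of -2.49 ± 0.26 (148 to 26.3 FPKM) and -1.86 ± 0.26 (162 to 44.7 FPKM). The related gene see2a was called lower at +4 (-0.43 ± 0.31, where its sign turned to 0.02 when rescaled to equal totals) and +10 (-0.63 ± 0.26). In q1 see1, see2b, see2a and asn3 all had their highest levels at the tip. Between the groups, see1 and see2b were lower and asn3 higher in q2 in every segment. The gene see2a was not called at -4 (0.07 ± 0.29) or -1 (-0.18 ± 0.41).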

How the data were processed

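RNA of leaf segments was sequenced in 24 libraries of 8 groups. The submitters' processing notes name GSNAP, an aligner, and Cuffdiff, which compares expression. Their versions, the genome build, the annotation and the handling of strand and shared reads were not in the sources read. Per the file headers, each deposited table follows Cuffdiff's layout. The authors pooled the replicates of a group into 1 FPKM value, and deposited a statistic, used here as a score, with its p-value and its adjusted p (q-value). Values per library were not analysed here.

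Log2 changes were recomputed from FPKM, because some deposited cells hold a spreadsheet error. The ± of a change is its size over the deposited statistic, and calls rest on the deposited adjusted p alone. Benjamini-Hochberg adjustment over genes of status OK gave the deposited adjusted p to within 5.22e-07. The smallest deposited p is 5e-05, so adjusted p-values at that floor do not rank genes. Alternatives were a pseudocount of 1 FPKM, equal totals, a median change of 0, stricter calls and other measures of likeness. Equal totals without 2 genes, and equal totals for the summed levels, were added after seeing the data. The Benjamini-Hochberg adjustment and the correlation formula were tested on simulated data, and the other calculations were not.

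The members and lists were chosen with earlier results of these data known. Lists were filled by symbol from the RefSeq table, which matched 18774 of 39634 identifiers, and 5 symbols that name or may name other genes were removed after the matches were listed. The text names at most 3 called genes with the largest change per list and segment, the members of short lists, and the 5 genes with a symbol whose log2(FPKM + 1) pattern correlated best with each member. One gene that this rule names is not reported here. Python 3.11.15 and pandas 2.3.3 were used.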

Additional observations from a re-analysis of the deposited data

How the results depend on the processing

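No paired analysis was possible because the deposited tables hold 1 pooled value per group, and for the same reason no replicate was left out. At an adjusted p under 0.01, 1 of the 4 asparagine synthetase genes was called at -4 instead of 2 (asn2 was lost), and 3708 genes in all at -4 and 2035 at -1, instead of 5629 and 3330. With a change of at least 2-fold, calls over all genes were 1406 at -4, 1589 at -1, 3735 at +4 and 2814 at +10, and calls among the list identifiers were 10, 12, 18 and 17. Equal totals shift every log2 change by 0.04, 0.10, 0.45 and 0.35 from -4 to +10. At +4, pep1 is listed at 0 FPKM in q1 and the C4 dikinase gene C4ppdkZm1 at 0 in q2, both with too much data to test. Without both genes, an alternative added after seeing the data, the shift was 0.43, asn1 stood at -0.12, asn3 at 6.46 and see2a at -0.01. With all genes, asn3 stood at 6.48 at +4 and 7.06 at +10. With a pseudocount of 1 FPKM, asn3 stood at 4.41 at -4 and asn2 at 1.10 at +10. The order of segments by level was the same as a share of total FPKM for all 4 genes in both groups. Of the 5 genes most like asn3, 4 were kept with a pseudocount of 0.1 FPKM and 3 by Spearman's rho.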
